A study of Mus musculus with 2 samples.

Results

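The genes followed here encode calcium-binding proteins used by neurons: the calcium buffers calbindin (Calb1), calretinin (Calb2) and parvalbumin (Pvalb), the calcium sensors hippocalcin (Hpca), hippocalcin-like 1 (Hpcal1) and neurocalcin delta (Ncald), the EF-hand proteins Necab1 and Necab2, and the calmodulin-like protein Calml4. These 9 genes were picked by symbol from 22296 symbols in the platform annotation, and all 9 were found there, on 84 probe sets (a probe set is a group of probes that reads 1 stretch of transcript) of the 318760 that carry 1 symbol. Gene expression was measured on 2 exon-level microarrays of mouse hypothalamic neurons that express agouti-related peptide (AgRP), sorted by FACS. The array of the FoxO1 KO genotype was set against the array of the FoxO1 heterozygous KO genotype, which stands as the control. Both genotypes had a mixed genetic background and came from littermates matched for age and sex, so both arrays carry at least 1 altered FoxO1 allele and no wild-type array is in the comparison. Not given in the sources used here are how the deletion was driven, the age of the mice, their number per array and any pooling. The study's title names the receptor Gpr17 as a FoxO1 target in these neurons, and the arrays ask which transcripts differ when FoxO1 is lost.

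Calcium that enters a firing neuron is bound within a short time by proteins with EF-hand loops, a helix-loop-helix fold that holds the ion. Calbindin, calretinin and parvalbumin mainly buffer calcium and shape its time course, and each is a classical marker of certain neuron classes. Hippocalcin and its relatives are sensors: calcium exposes a fatty acid anchor and moves them to membranes, where they act on channels and enzymes. AgRP neurons are GABAergic cells of the arcuate nucleus that drive feeding, and the transcription factor FoxO1 is held out of the nucleus by insulin signalling.

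There was 1 array per genotype, so no value below has a replicate or a test, and this number of arrays limits how precise each can be. Differences are given on the log2 scale as KO minus heterozygous KO. A gene's value is the median over its probe sets at or above a floor of 5.86 (the median over all probe sets of the mean of both arrays), with the SD over those probe sets, which measures disagreement among probe sets and not between mice. Evaluated genes had at least 3 such probe sets and numbered 16639, with a median difference of -0.11 and quartiles of -0.29 and 0.09. A gene's levels are medians taken on each array separately, so their gap can differ from the gene's value in size or sign. Foxo1 was lower on all 8 of its probe sets above the floor, by a median of -0.48, though which of them read the deleted part is not known. The peptide genes Agrp and Npy, by which these neurons are recognised, differed by 0.27 and 0.14. Gpr17 differed by -2.10 (SD 1.48 over 5 probe sets, 4 of them lower) and passed as lower under the 2-fold rule given below.

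Start site windows from RefSeq (build GRCm38.p6) were matched by symbol for 5 of the 9 genes, Hpca, Hpcal1, Pvalb, Necab2 and Calml4, with 8 windows in all. They were not found for Calb1, Calb2, Ncald and Necab1. The windows run from 250 bases before to 50 bases after a start. Shown are the 250 bases before the start for Necab2 and Calml4, 2 members past the 2-fold rule below in opposite directions, and for both listed starts of Pvalb, whose probe sets disagreed in direction. Capitals mark CG dinucleotides, and each sequence reads 5′ to 3′ on the strand of the gene.
Necab2, chr8:119446469-119446718, plus strand: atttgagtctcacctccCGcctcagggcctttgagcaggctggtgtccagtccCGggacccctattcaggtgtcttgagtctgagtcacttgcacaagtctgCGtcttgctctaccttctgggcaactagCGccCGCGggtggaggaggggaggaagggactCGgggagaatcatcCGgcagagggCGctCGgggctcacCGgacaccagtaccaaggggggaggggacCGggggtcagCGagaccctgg
Calml4, chr9:62857854-62858103, plus strand: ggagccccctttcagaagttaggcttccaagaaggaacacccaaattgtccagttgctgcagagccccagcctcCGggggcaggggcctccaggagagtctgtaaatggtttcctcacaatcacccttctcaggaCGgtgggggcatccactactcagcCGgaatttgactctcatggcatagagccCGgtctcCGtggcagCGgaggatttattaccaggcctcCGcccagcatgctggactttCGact
Pvalb start A, chr15:78206401-78206650, minus strand: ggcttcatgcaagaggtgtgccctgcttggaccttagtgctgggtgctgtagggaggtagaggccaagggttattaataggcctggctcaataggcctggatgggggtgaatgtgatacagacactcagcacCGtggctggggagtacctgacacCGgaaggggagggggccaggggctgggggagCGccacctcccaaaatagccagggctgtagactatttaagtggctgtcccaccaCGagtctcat
Pvalb start B, chr15:78204238-78204487, minus strand: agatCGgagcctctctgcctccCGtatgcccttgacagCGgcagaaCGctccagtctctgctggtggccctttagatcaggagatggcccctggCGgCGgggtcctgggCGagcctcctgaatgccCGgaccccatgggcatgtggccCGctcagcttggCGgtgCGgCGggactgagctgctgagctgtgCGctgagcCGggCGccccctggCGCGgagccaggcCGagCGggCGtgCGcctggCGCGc
The Necab2 stretch holds 13 CG and that of Calml4 holds 8, against a median of 6 over all 32851 windows. The Pvalb starts differ, with 4 CG before start A and 23 before start B, and 86.7% of windows held fewer than start B. The forkhead motif GTAAACA and the insulin response core CAAAACA, searched on both strands of the full windows (both end in AAACA and were counted separately), were present in none of the 8 member windows. Over all windows they were present in 3.65% and 6.28%, so these letters are uncommon in windows of this length. Which start a probe set of Pvalb reads is not known here, because the annotation used gives no exon.

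Calb1, Calb2 and Necab2 were mostly lower on the KO array, Calml4 and part of Pvalb were higher, and Necab1 was near 0. Hpca, Ncald and the single Hpcal1 probe set were lower by less than 2-fold. Of these, Ncald at -0.18 lay between the quartiles of all evaluated genes (-0.29 and 0.09). Under a rule that asks for a difference of at least 2-fold with at least 75% of a gene's probe sets going that way, Calb1 and Necab2 passed as lower and Calml4 as higher, while the other 5 evaluated members did not pass. Over all evaluated genes 1.12% passed as lower and 1.13% as higher. The members were chosen with such values known, so their counts of 2 lower and 1 higher of 8 describe the choice. Hpcal1, with 1 probe set, was not evaluated. The median over the 8 evaluated members was -0.30, with 6 below 0, where 65.2% of all evaluated genes lay below 0.

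**Figure D1:**
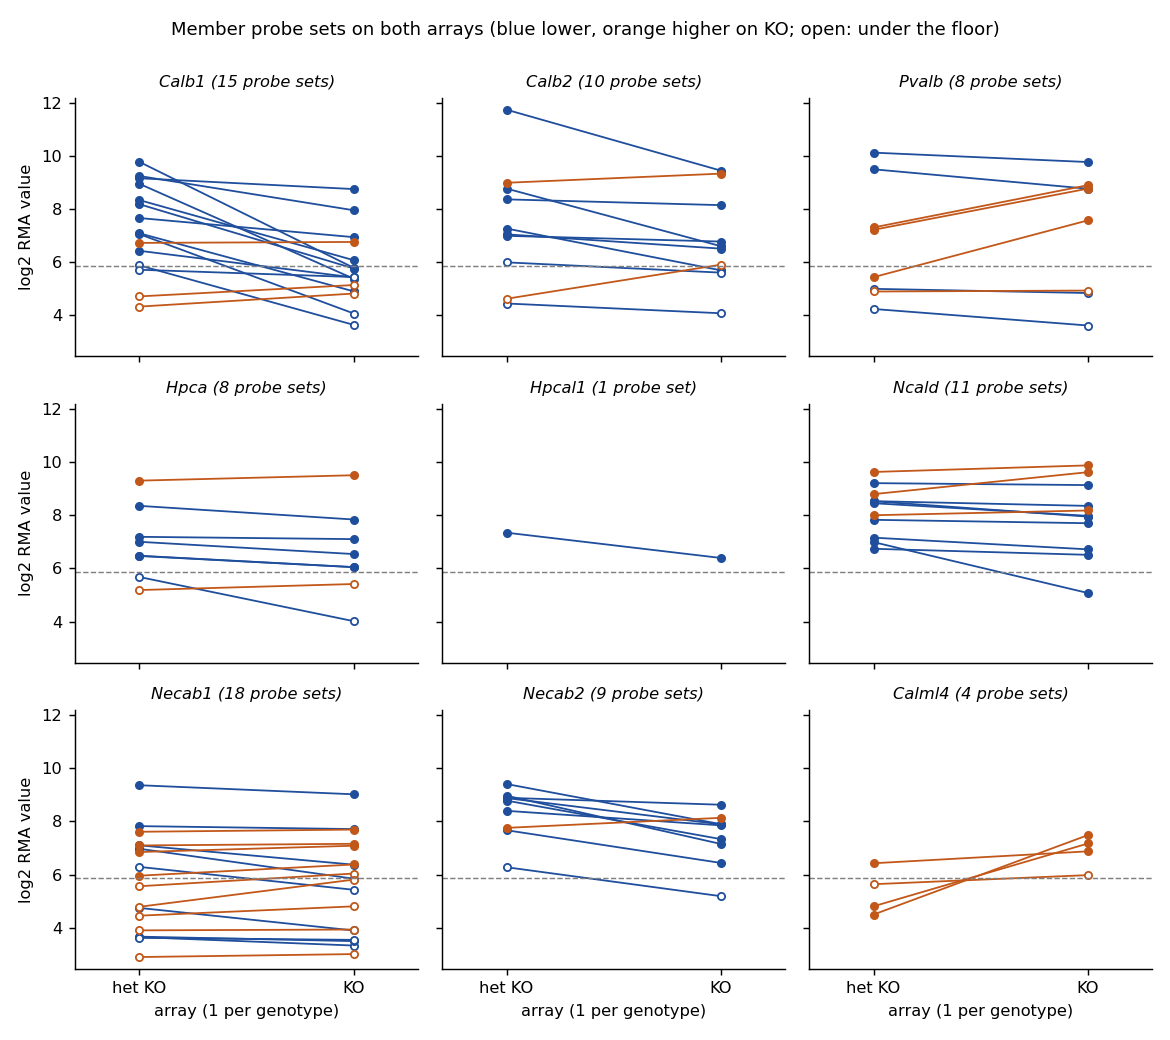
Log2 RMA value (vertical axis) of each probe set of the 9 genes on the heterozygous KO and the KO array (horizontal axis), 1 line per probe set, blue where lower and orange where higher on the KO array, open circles for probe sets under the floor of 5.86 (dashed) on the mean of both arrays. Calb1 lines drop below the floor on the KO array for 7 of 15 probe sets, all 4 Calml4 lines go up, and Pvalb lines go both ways.

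Calb1 encodes calbindin, a fast buffer found in many inhibitory and projection neurons. Its level was 5.93 on KO against 8.26 on heterozygous KO, and its difference was -1.74 (SD 1.33 over 10 probe sets), or 3.33-fold lower. Of these probe sets 9 were lower and 1 was at 0.04. The widest gaps were 5.78 on KO against 9.77 on heterozygous KO, and 5.38 against 8.95. Further probe sets stood at 5.76 against 8.18, at 6.07 against 8.33 and at 4.90 against 7.09. On these 5 probe sets the gene went from clearly above the floor to near or below it. Other probe sets of Calb1 moved far less. One stood at 8.75 against 9.16, another at 6.94 against 7.66, and another at 7.95 against 9.24. The gene thus kept a signal above the floor on the KO array in part of its probe sets and lost it in others. Of 5 probe sets under the floor, 3 were lower, among them 4.07 against 7.05 and 3.64 against 5.88, and 2 were higher by 0.43 and 0.49. Over all 15 probe sets 12 were lower, 9 by at least 2-fold and 7 by at least 4-fold, where 9.80% and 2.25% of all probe sets with 1 symbol were that much lower.

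The size of the Calb1 difference depended on which probe sets were read. With the floor required on each array, an alternative chosen after seeing the data, only the 5 probe sets above it on both remained, and their median was -0.72, which did not pass the rule. With no floor the median over 15 probe sets was -1.29, which passed. Of the 10 probe sets, 5 passed the floor on the mean through the heterozygous array while under it on the KO array. The SD of Calb1 was matched or exceeded by 7.55% of genes, so its probe sets also disagreed more than those of most genes. With the floor required on each array its SD was 0.89 over 5 probe sets.

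Calb2 encodes calretinin, a relative of calbindin that marks other interneurons. Its difference was -0.54 (SD 1.05 over 7 probe sets), with levels of 6.78 on KO and 8.36 on heterozygous KO, and 6 of 7 probe sets were lower. Of these probe sets 3 were lower by at least 2-fold, at 9.44 on KO against 11.73 on heterozygous KO, 6.60 against 8.77 and 5.69 against 7.27. The others were 6.51 against 7.05, 8.14 against 8.36, 6.78 against 6.99 and 9.33 against 8.99. The gene value is the difference of the probe set at 6.51 against 7.05. The levels of the gene come from other probe sets, so their gap is wider than -0.54. With the floor at the 75th percentile, which left 4 probe sets, the median was -1.19 and the gene passed the rule as lower. Under the floor 1 of 3 probe sets went the other way, at 5.91 against 4.62.

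Pvalb encodes parvalbumin, the slow buffer of fast-spiking interneurons and of muscle. Its difference was 1.55 (SD 1.29 over 5 probe sets), or 2.93-fold higher, yet 3 of 5 probe sets were higher and 2 were lower, so it did not pass the rule on direction. Without that rule it would count as higher, as 1.42% of all evaluated genes did. The higher ones stood at 8.77 on KO against 7.22 on heterozygous KO, at 8.90 against 7.31 and at 7.57 against 5.44. The last of these was under the floor on the heterozygous array and passed the floor on the mean through the KO array. The lower ones stood at 8.76 against 9.49 and at 9.77 against 10.12. No probe set of this gene lay between -0.35 and 1.55 above the floor. The 3 probe sets under the floor differed by -0.62, -0.16 and 0.03. With no floor the gene's median was -0.06 over 8 probe sets. With the floor required on each array, or set at the 75th percentile, it was 0.60 over 4 probe sets, which is under 2-fold. A single value thus does not describe the probe sets of Pvalb.

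**Figure D2:**
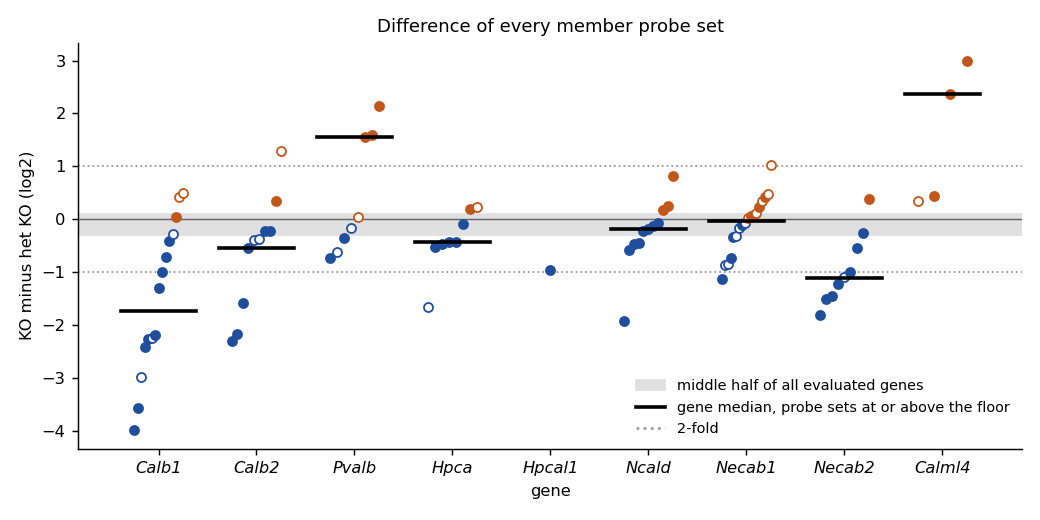
KO minus heterozygous KO difference (log2, vertical axis) of each of the 84 probe sets by gene (horizontal axis), open circles under the floor, black bars for the gene median, dotted lines at 2-fold, and a grey band from -0.29 to 0.09 that holds the middle of all evaluated genes. The band is drawn from gene values, which are medians, while the points are single probe sets. Of all probe sets with 1 symbol, 9.80% were at least 2-fold lower and 8.52% at least 2-fold higher. Calb1 spreads from -3.99 to 0.49, Pvalb splits into 2 groups, and Ncald probe sets lie mostly near the band.

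The sensor genes differed by less than 2-fold in each gene value. Hpca, whose protein is abundant in hippocampal pyramidal cells and takes part in the slow afterhyperpolarisation, differed by -0.42 (SD 0.28 over 6 probe sets), with levels of 6.82 on KO and 7.09 on heterozygous KO. Its probe sets were alike: 4 of them lay between -0.51 and -0.42, one at -0.09 and one at 0.20. For 92.8% of evaluated genes the SD over probe sets was at least as large. The probe set with the widest gap, 4.01 on KO against 5.68 on heterozygous KO, was under the floor on both arrays.

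Ncald encodes neurocalcin delta, a close relative of hippocalcin. It differed by -0.18 (SD 0.68 over 11 probe sets, 8 of them lower), with levels of 7.97 and 8.45 on the KO and the heterozygous array. One probe set stood apart, at 5.07 on KO against 6.99 on heterozygous KO. The largest gap the other way was 9.62 against 8.79. The remaining 9 lay between -0.58 and 0.25, and 39.5% of all evaluated genes had a lower difference than Ncald. The single Hpcal1 probe set stood at 6.39 on KO and 7.34 on heterozygous KO, a difference of -0.95 that rests on 1 probe set. Hippocalcin, hippocalcin-like 1 and neurocalcin delta are closely related proteins, and whether their probe sets cross-hybridise was not tested, so values of 1 may hold signal of another.

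Necab1 and Necab2 encode paralogous proteins with an EF-hand at the N-terminus. Necab2, which binds adenosine and metabotropic glutamate receptors, was lower on the KO array with levels of 7.87 against 8.83. Its difference was -1.11 (SD 0.74 over 8 probe sets, 7 lower), or 2.16-fold. The probe sets stood at 7.15 on KO against 8.97 on heterozygous KO, 7.89 against 9.40, 7.33 against 8.78 and 6.44 against 7.67 at the low end. Smaller gaps were 7.89 against 8.87, 7.85 against 8.40 and 8.63 against 8.89, and the exception was 8.13 against 7.76. All 8 were above the floor on both arrays. Its size was just past the 2-fold line, and it passed under 6 of 10 alternatives. It did not pass when centred on the median over genes (-0.999), with the trend on level removed (-0.997), under a floor at the 75th percentile (-0.99) or with the mean over probe sets (-0.93).

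Necab1 differed by -0.02 (SD 0.52 over 8 probe sets, 4 lower and 4 higher), with levels of 7.12 on KO and 7.10 on heterozygous KO. Of its 18 probe sets, 10 were under the floor, and over all 18 there were 9 lower and 9 higher. The widest gaps were 5.84 on KO against 6.97 on heterozygous KO and, under the floor, 5.81 against 4.79. The paralogs thus gave unlike values on these arrays, Necab2 past the rule and Necab1 near 0. That contrast was not tested.

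Calml4 encodes a calmodulin-like light chain known from the brush border of epithelia. Its level was 7.17 on KO against 4.81 on heterozygous KO, and its difference was 2.36 (SD 1.32 over 3 probe sets, 3 higher) or 5.14-fold higher. The heterozygous level was under the floor, and 2 of the 3 probe sets reached it on average only because the KO array was high, so the size is uncertain. The annotation lists 4 probe sets. They stood at 7.49 on KO against 4.50 on heterozygous KO, at 7.17 against 4.81, at 6.87 against 6.43 and, under the floor, at 5.98 against 5.64. All 4 were higher, but by unequal amounts: 2 were over 4-fold higher and the other two by 0.45 or less. Just 1 of the 4 was above the floor on both arrays, so the gene was not evaluated with the floor required on each array. With no floor it was at 1.40 and passed the rule.

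Counted over probe sets, 56 of the 84 were lower on the KO array, or 66.7%, against 56.2% of all probe sets with 1 symbol. Of the 84, 20 were at least 2-fold lower and 7 at least 2-fold higher, or 23.8% and 8.33%, where the shares among all such probe sets were 9.80% and 8.52%. The lower ones lay mainly in 3 genes: 9 in Calb1, 5 in Necab2 and 3 in Calb2, which leaves 3 in the other members. Probe sets above the floor on the heterozygous array alone numbered 13, of which 7 were in Calb1, and those above it on the KO array alone numbered 6, of which 3 were in Calml4. Among all probe sets with 1 symbol, 6.07% and 5.10% were of these kinds. Probe sets of 1 gene can read the same transcripts or different ones, and they are not independent.

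Other genes of calcium handling were read from 4 lists, 71 of 75 genes evaluated. Of the other neuronal calcium sensors 9 were evaluated and none passed the rule. Their median was -0.47 with 8 below 0, where 65.2% of all evaluated genes lay below 0. Ncs1, the neuronal calcium sensor that tunes transmitter release, was lowest at -0.82 (levels 7.68 on KO and 8.71 on heterozygous KO, 6 of 7 probe sets lower), and the potassium channel partner Kcnip2 was highest at 0.05. The visinin-like gene Vsnl1 stood between them at -0.47. Calmodulins and other EF-hand proteins had a median of 0.01 over 19 genes, with 9 below 0 and 10 above 0. None of them passed the rule, and they ran from the calmodulin gene Calm3 at -0.56 to the centrin gene Cetn2 at 0.62.

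Pumps, exchangers and calcium store proteins had a median of -0.25 over 23 genes, with 22 below 0. One of them passed the rule as lower, the potassium-dependent sodium-calcium exchanger Slc24a3 at -1.10 (SD 1.11, 16 of 19 probe sets lower). Calmodulin-dependent enzymes had a median of -0.13 over 20 genes, with 14 below 0, near the 65.2% of all evaluated genes that lay below 0. Here too one passed as lower, Pde1a, a phosphodiesterase switched on by calmodulin, at -2.11 (SD 1.81, 11 of 12 probe sets lower, levels 5.40 on KO and 7.55 on heterozygous KO). Over all 4 lists 2 of 71 genes passed as lower and 0 as higher, beside 1.12% and 1.13% of all evaluated genes. With no floor neither Slc24a3 nor Pde1a passed. With the mean over probe sets 2 genes of each of these lists passed as lower, and under a floor at the 75th percentile 2 pumps and exchangers and 1 enzyme did.

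**Figure D3:**
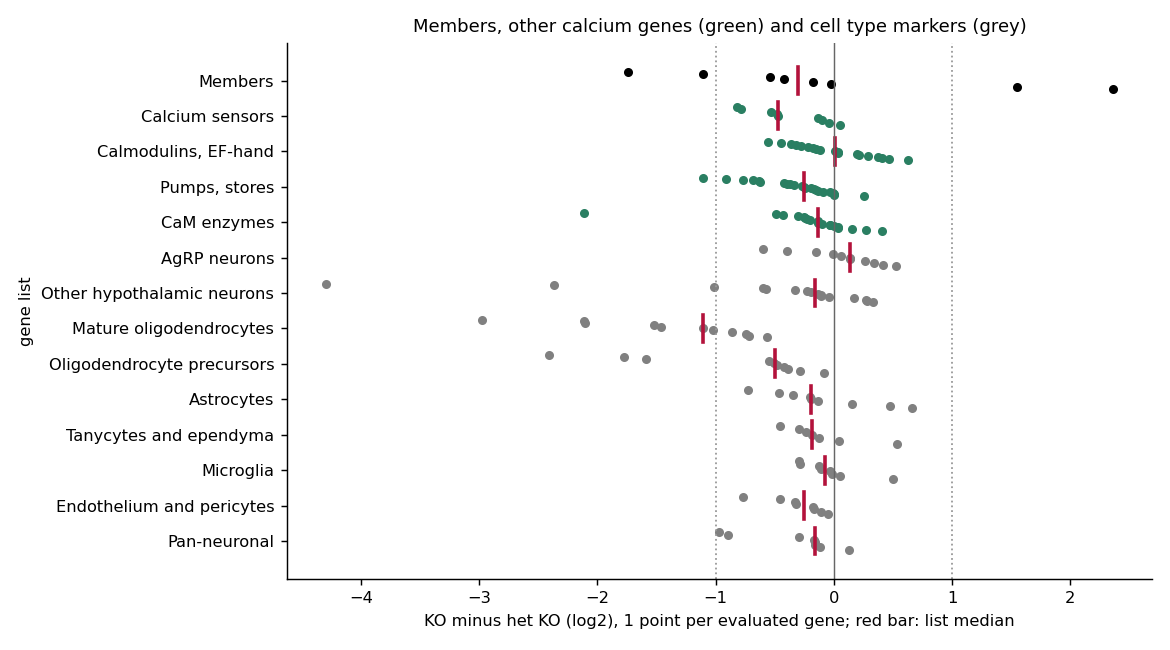
KO minus heterozygous KO difference (log2, horizontal axis) of each evaluated gene by list (vertical axis), black for the 8 evaluated members, green for 4 lists of other calcium genes and grey for cell type markers, with red bars at list medians and dotted lines at 2-fold. The members, chosen with their values known, run from -1.74 to 2.36, the 9 other calcium sensors from -0.82 to 0.05 and the calmodulin-dependent enzymes from -2.11 to 0.41.

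Calbindin, calretinin and parvalbumin mark neurons other than AgRP cells in many brain regions, so markers of other cells were read beside them. In RNA of sorted cells, fewer cells of a type and less RNA per cell cannot be told apart. Among 16 evaluated markers of other hypothalamic neurons the median was -0.16, near the -0.11 of all genes, with 12 below 0, and 3 passed the rule as lower: the glutamate transporter Slc17a6 at -4.29, the neuropeptide gene Npvf at -2.36 and the oxytocin gene Oxt at -1.01. The KO levels of Slc17a6 (5.40) and Npvf (5.81) were under the floor, so the sizes of their differences are uncertain. The summed level of that list on the log2 scale was 12.0 on KO and 12.6 on heterozygous KO. Mature oligodendrocyte markers were lower in 11 of 11 genes, 7 past the rule, led by Ugt8a at -2.98, Mag at -2.12, Cnp at -2.10 and Trf at -1.52, with summed levels of 11.0 and 12.3. Oligodendrocyte precursor markers were lower in 10 of 10, 3 past the rule (Pdgfra at -2.41, Enpp6 at -1.78, Lhfpl3 at -1.59), with summed levels of 10.5 and 11.5. Over all evaluated genes 1.12% passed as lower and 65.2% lay below 0. Both oligodendrocyte lists were lower, as Calb1, Calb2 and Necab2 were. The markers of other neurons were mixed: 3 passed as lower, while 4 of 16 lay above 0, with Cartpt highest at 0.33. The part of any of these cells in the values of the members was not tested.

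The remaining marker lists had no gene past the rule. With the mean over probe sets 1 gene of endothelium and pericytes passed as lower, and under a floor at the 75th percentile 1 pan-neuronal gene did. Medians were -0.19 for astrocytes (Gfap 0.66, Slc1a3 -0.73), -0.19 for tanycytes and ependyma (Tmem212 0.53, Vim -0.46), -0.07 for microglia (Aif1 0.50, Trem2 -0.30) and -0.25 for endothelium and pericytes (Pecam1 -0.05, Cdh5 -0.77). Pan-neuronal genes had a median of -0.16 (Elavl4 0.13, Syt1 -0.97), and the 11 genes of AgRP neurons 0.14 (Mc3r 0.52, Ghsr -0.60), with summed levels of 13.9 on KO and 13.7 on heterozygous KO. None of the 88 evaluated markers passed the rule as higher on KO, where 1.13% of all evaluated genes did.

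**Figure D4:**
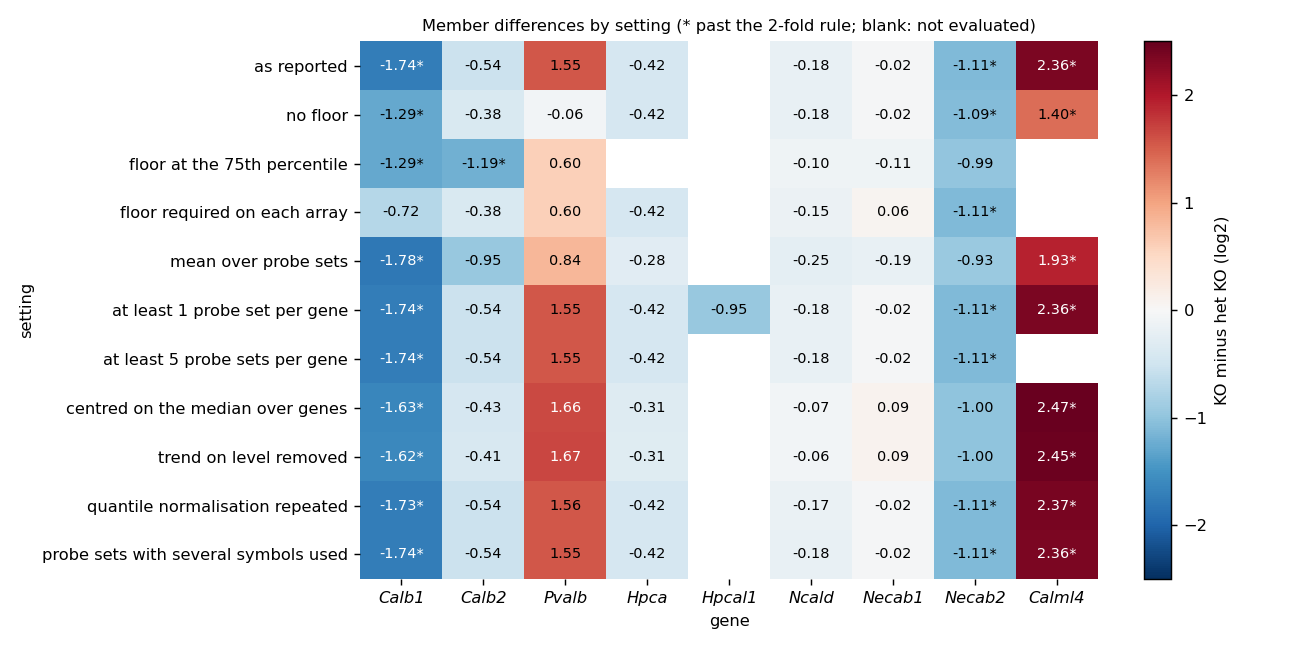
KO minus heterozygous KO difference (log2, colour and printed value) of each member (horizontal axis) as reported and under 10 other settings (vertical axis), with a star where the 2-fold rule was passed and a blank where the gene was not evaluated. Calb1 and Calb2 are below 0 in each row, Calml4 is above 0 wherever it was evaluated, and Pvalb runs from -0.06 to 1.67.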

How the data were processed

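The deposited table holds 1 log2 value per probe set and array. Per the submitters' processing notes the authors used RMA and Partek, with no versions; the log2 scale was taken from the values, which ran from 2.53 to 14.1. RMA as usually run gives both arrays 1 distribution, which hides any change in total RNA. A genome build was not given in the sources used here. Of 1235936 probe sets, 318760 had 1 symbol, 6684 several and 910492 none in the platform annotation, and only those with 1 symbol named a gene. The gene value is the median over probe sets at or above the floor. A probe set can pass the floor through 1 bright array, so large differences are favoured among probe sets near the floor. With 1 array per genotype no p-value is given.

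The members, lists and rules were chosen with earlier results of these data known. Named are all members, Foxo1, Gpr17, Agrp and Npy. From each list the genes past the 2-fold rule (at most 4 by size) are named, or else the highest and the lowest. Vsnl1 was named after its value was seen, and so was Cartpt. Of the list genes, 4 were found under an older symbol. Alternatives changed the floor (none, the 75th percentile, or on each array), the summary (mean), the minimum of probe sets (1 or 5), the centring, the trend on level, the quantile normalisation (repeated), the annotation (several symbols) and the rule (1.5-fold, or without agreement). The summary was tested on simulated data. There, differences were shuffled among probe sets of like level, and the same shift was added to all probe sets of a chosen gene. That setting does not cover genes whose probe sets disagree as those of Calb1, Pvalb and Calml4 did. Tools were pandas 2.3.3, numpy 2.4.6, statsmodels 0.14.6 and matplotlib 3.10.9 under Python 3.11.15.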

Additional observations from a re-analysis of the deposited data

How the results depend on the processing

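No paired analysis was possible because there is 1 array per genotype. For the same reason no replicate could be left out. The count of 1 member at least 2-fold higher became 0 under a floor at the 75th percentile, with at least 5 probe sets per gene and with the floor required on each array (an alternative chosen after seeing the data), since Calml4 was not evaluated there, and 2 with no agreement rule, which added Pvalb. The count of 2 members at least 2-fold lower was 1 with the mean over probe sets, with centring on the median over genes and with the trend on level removed, where Necab2 did not pass, and 1 with the floor required on each array, where Calb1 did not. Under a floor at the 75th percentile that count stayed at 2, but the genes were Calb1 and Calb2. The median over members ran from -0.55 to -0.18 and stayed below 0 under 10 alternatives. Necab1 ran from -0.19 to 0.09 and has no settled direction. For single members, only Pvalb with no floor (-0.06) moved by more than the SD over its probe sets.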

Other observations

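The spread of differences among a gene's probe sets was unequal over the members and, for Calb1, depended on the floor. The SD over probe sets was 1.33 for Calb1, 1.32 for Calml4 and 1.29 for Pvalb, against a median of 0.68 over all evaluated genes, and 7.55%, 7.79% and 8.85% of genes had an SD at least that large. It was 0.28 for Hpca. In Calb1 5 of 10 probe sets, in Calml4 2 of 3 and in Pvalb 1 of 5 passed the floor through 1 array only. With the floor required on each array the SD was 0.89 for Calb1 and 1.23 for Pvalb, and Calml4 was not evaluated. The 2-fold rule passed Calb1 and Calml4 and not Pvalb because of the share of probe sets that went the same way, 9 of 10 and 3 of 3 against 3 of 5.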
